A study of Mus musculus and Homo sapiens with 22 samples.

Results

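Of the 11285 Lin28A sites listed for Mettl3 knockout (KO) mouse embryonic stem (mES) cells, 8804 overlapped a single RefSeq gene that was protein-coding. Of these, 2484 shared no nucleotide on the same strand with any of the 10990 sites listed for Mettl3 wild-type (WT) mES cells, and they are called KO-only sites here. Members were thus chosen by the absence of an overlapping WT site in the authors' list. They made up 28.2% of the KO sites in protein-coding genes, and the other 6320 were shared with WT. The same rule applied to WT sites gave 2297 WT-only sites, 26.6% of the 8632 WT sites in protein-coding genes. These counts describe that choice, and no test was made of them.

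The sites came from irCLIP, in which cells are irradiated with ultraviolet light to crosslink proteins to RNA, an antibody pulls down the protein, and the attached RNA is sequenced. Mettl3 KO mES cells were set against Mettl3 WT mES cells, both labelled as V6.5 mES cells, grown in serum with LIF on gelatin, crosslinked with UV-C and precipitated with an antibody against Lin28A. Each genotype had 1 site list, so no replicate error exists for any value, and no source used here gives whether the KO line was a single clone. Anti-GFP control libraries of both genotypes were part of the study and were not analysed here. Sequencing depth is unknown, and a site list cannot tell more binding from more RNA of the bound gene.

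Lin28A is an RNA-binding protein of stem cells, best known for blocking the maturation of let-7 microRNAs. Its zinc knuckles bind GGAG in the let-7 precursor, and the protein also binds a large number of mRNAs. Mettl3 is the methyltransferase behind most N6-methyladenosine (m6A) of mRNA, a mark concentrated near stop codons and in 3′ untranslated regions.

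No genome of the build was at hand, so site sequences could be read only where a site ran into the RefSeq promoter table (GRCm38.p6, from 250 bases before to 50 bases after each gene's annotated start). Of 1974 KO-only sites whose gene is in that table, those on a single chromosome were not read for sequence. Of the rest, 35 reached into a window. The first 3 stretches below are shown because they belong to genes among the 10 with the most KO-only sites. The others are the remaining sites, among those read, that hold GGAG on their own strand within a window. All are written 5′ to 3′ on the strand of the site, with at most 30 bases each and GGAG in capitals.
Trip12, chr1:84839371-84839400, minus strand: gGGAGGGAGgcggcgcggacGGAGgcgcac
Mybbp1a, chr11:72441351-72441376, plus strand: gactgtcttctgagcccacgtgtttg
Cenpf, chr1:189688037-189688050, minus strand: gcgctgtgtgagga
Hnrnpa0, chr13:58128514-58128543, minus strand: gtcccgataggGGAGcGGAGgtggcggccg
Mrpl58, chr11:115403761-115403790, plus strand: cctgGGAGgtgaacatggcgaccgcctggg
0610009B22Rik, chr11:51688621-51688650, minus strand: cGGAGctaccccgcggggtggacgttgagt
Irf2bpl, chr12:86884811-86884840, plus strand, opposite to the gene: cgcgggatgccgcccgggcGGAGcgctgac
The Trip12 stretch lay at positions -96 to -67, counted from 0 at the start in the promoter table, and that start lies inside the gene bounds used elsewhere, in which the site is 10.6 kb from the gene start. The Mybbp1a, Cenpf, Hnrnpa0 and Mrpl58 stretches lay within the first 50 bases from the table's start, and the 0610009B22Rik and Irf2bpl stretches ran across it. Of the 13 KO-only sites read that had at least 50 bases inside a window, 4 held GGAG on their own strand and 5 on either strand. For comparison, GGAG was present in the first 50 bases of 37.8% of the 21263 protein-coding genes in the table (58.4% on either strand). It was present in 32.6% of the stretches of 50 bases just before the start. A count over 13 sites is too small to set against these shares, and a match is a run of letters, not a contact.

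KO-only sites were narrow and scored low in their list, as WT-only sites did in theirs. The score is the authors' own value per site and ranks sites within a list. Of them, 97.1% were 50 nt wide, the smallest unit in the lists, against 81.6% of the shared KO sites and 96.6% of WT-only sites. The median KO-only score was 14, with quartiles of 12 and 16 and a maximum of 55. Shared KO sites had a median of 21.8, quartiles of 16 and 33 and a maximum of 8978. WT-only sites had a median of 15 in the WT list, with quartiles of 13 and 17. The lowest score in the KO list was 12 and the lowest in the WT list was 13, with largest p-values of 1.06e-05 and 1.01e-05 in the authors' columns. A total of 658 KO-only sites, 26.5% (exact 95% interval 24.8 to 28.3), scored under 13 and so under every WT site, against 6.04% of the shared KO sites. The other 1826 KO-only sites scored at least 13. These intervals cover counting error only and treat sites as independent, although sites of a gene share its RNA.

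The share of KO sites that were KO-only fell with the score. It was 63.3% of the 1040 sites that scored from 12 to under 13, 58.5% of the 843 sites from 13 to under 14, and 47.0% of the 721 sites from 14 to under 15. It was 32.5% of the 2370 sites from 15 to under 20 and 11.1% of the 1903 sites from 20 to under 30. Of 1094 KO sites that scored from 30 to under 50, 12 were KO-only, and of 833 sites that scored 50 or more, 1 was. WT-only shares of WT sites fell with the score as well. They were 64.2% from 13 to under 14, 52.8% from 14 to under 15 and 38.3% from 15 to under 20. They were 12.3% from 20 to under 30, 2.66% from 30 to under 50 and 0.420% of the 953 WT sites at 50 or more. In each class that both lists held, the WT-only share was the higher, with intervals apart only from 15 to under 20. Whether equal scores mean the same in both lists is not known.

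**Figure D1:**
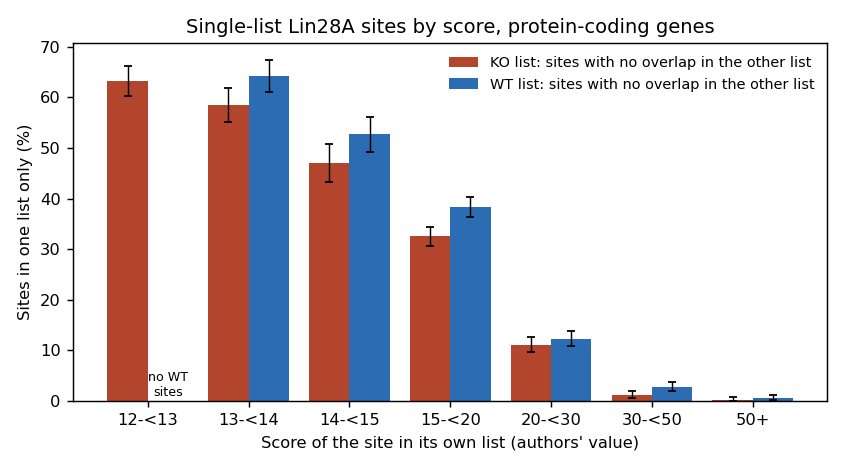
Percent of sites found in only 1 list (y axis) by the site's score in its own list (x axis), for KO sites and WT sites in protein-coding genes, with exact 95% intervals as error bars. In the KO list the bars fall from 63.3% in the lowest class to 0.120% at scores of 50 or more, and the WT list has no site under 13.

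The KO-only site with the highest score, 55, lay in Mpnd, which encodes an MPN domain protein, on chromosome 17, and its nearest WT site was 33400 nt away. A site in Scd1, a stearoyl-CoA desaturase, scored 46, and a site in Rad51b, a recombination repair protein, scored 41 with the nearest WT site 443900 nt away. The authors' p-value for these 3 sites was 2.86e-15. Cinp, a Cdk-interacting protein, and Ewsr1, an RNA-binding protein, each had a site that scored 34, and that of Ewsr1 sat 0.0895 kb from the end of the gene. Dynll2, a dynein light chain, had a site at 33, Pdcd11, a ribosomal RNA processing factor, and the RNA-binding protein Hnrnpd had sites at 32, and Tbc1d5, a Rab GTPase-activating protein, and Mdn1 had sites at 31. Distances of these sites from a WT site were spread widely. They were 100 nt for Dynll2, 1000 nt for Hnrnpd, 1750 nt for Ewsr1, 8850 nt for Mdn1 and 13500 nt for Pdcd11. The Tbc1d5 site was 39800 nt away, the Cinp site 133250 nt and the Scd1 site 152650 nt. The median over all KO-only sites was 4250 nt.

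KO-only sites lay at a wide range of distances from the nearest WT site on their strand. Distances were counted along the genome, introns included. The median distance between edges was 4250 nt (quartiles 400 and 79500), against 3350 nt (350 and 46950) from WT-only sites to the nearest KO site. A total of 115 KO-only sites touched a WT site edge to edge without sharing a base, and in 96 of these the WT neighbour was itself WT-only. A further 169 lay 1 to 50 nt away, 203 lay 51 to 200 nt away, 378 lay beyond that within 1000 nt and 571 beyond that within 10000 nt. More than 10000 nt separated 1048 sites, 42.2% (40.2 to 44.2), from a WT site, compared with 38.0% (36.0 to 40.0) of WT-only sites from a KO site. At most 200 nt separated 487 KO-only sites, 19.6% (18.1 to 21.2), from a WT site, against 21.7% (20.1 to 23.5) of WT-only sites from a KO site, and these intervals overlap.

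The median score was the same at short and long distances, 14 for KO-only sites within 200 nt and for those beyond 10000 nt. Just inside the rule, the 115 touching sites had a median score of 14. Just outside it, 456 shared KO sites were covered by WT sites only in part, by at least 50 nt, and had a median score of 19.5. Sites covered in part in this way are wider than 50 nt, while 97.1% of KO-only sites were 50 nt wide. These medians therefore compare sites of unlike width.

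**Figure D2:**
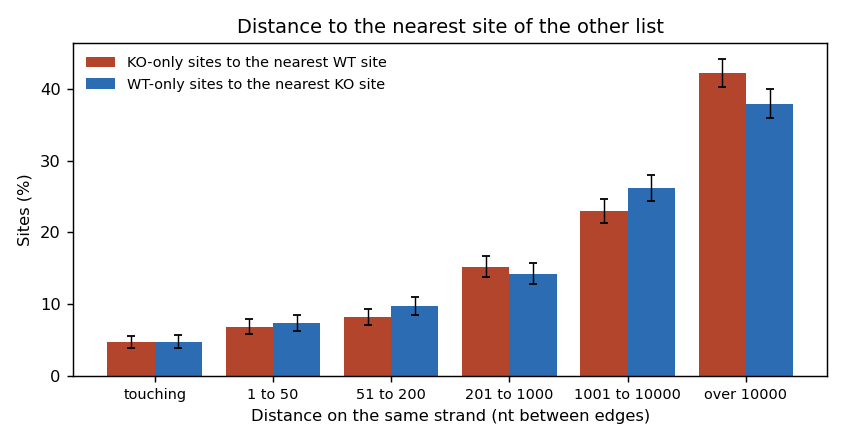
Percent of sites (y axis) by the distance in nt to the nearest site of the other list on the same strand (x axis), for KO-only sites and WT-only sites, with exact 95% intervals. Distances above 10000 nt form the tallest class in both, with 42.2% of KO-only and 38.0% of WT-only sites.

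A gene that held no WT site at all on the site's strand carried 825 KO-only sites, 33.2% (31.4 to 35.1), spread over 720 genes. The remaining 1659 sites lay in genes with a WT site, at a median distance of 900 nt from the nearest one. The median score was 14 in both classes. In the mirrored count, 641 of the 2297 WT-only sites lay in genes with no KO site. Other KO-only sites were rarely close by: 159 sites, 6.40%, had another KO-only site of the same gene within 200 nt, and 445, 17.9%, within 1000 nt.

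KO-only sites were spread thinly over 1679 genes, 44.6% of the 3768 protein-coding genes with a KO site. A single KO-only site was found in 1232 of them and 2 sites in 281. Another 166 genes, 4.41% of those with a KO site, held 3 or more, and together they carried 690 of the members, 27.8%. In the mirrored count, WT-only sites lay in 1435 genes, 39.9% of the 3601 genes with a WT site, and 194 genes (5.39%) had 3 or more. Of the 166 genes, 87 held exactly 3, 31 held 4, 27 held 5 and 21 held 6 or more. Shared sites were present beside them in 146 of the 166 genes, and 16 had no WT site assigned and none within their bounds on the strand of the KO-only sites. WT-only sites were absent from 57 of the 166 and numbered 3 or more in 49. KO-only sites outnumbered WT-only sites in 128 of these genes, equalled them in 13 and were fewer in 25, an excess that the choice of genes by their KO-only count brings with it. The KO-only counts also include sites that scored under 13, where the WT list had none. Site counts were not scaled to gene length, which is given for the leading genes.

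Fn1, which encodes the matrix protein fibronectin, held the most KO-only sites. On chromosome 1 (71585473 to 71653280, 67.8 kb, minus strand of the sites), 20 of its 39 KO sites were KO-only, against 4 WT-only among 24 WT sites. The KO-only scores were between 12 and 23 with a median of 14.8, and the 19 shared KO sites scored 12.5 to 77.5 with a median of 19. Of the 20 KO-only sites, 19 scored at least 13, the lowest score in the WT list. The sites ran along nearly the whole gene, the first at 0.229% and the last at 92.1% of its length. They lay 0 to 5050 nt from the nearest WT site, with a median of 1975 nt, and only 3 were within 200 nt. The 2 highest, at 23 each, lay at 2.59% and 66.9% of the gene.

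Trip12, a HECT-type ubiquitin ligase of 128.8 kb on the same chromosome, had 12 KO-only among 28 KO sites, against 6 WT-only among 22 WT sites. Scores ran from 12 to 17, below the median of 19.5 of its 16 shared KO sites. Of the 12 KO-only sites, 8 scored at least 13, the lowest score in the WT list. The first of the 12 is the site with the GGAG runs printed above, 50 nt from a WT site, with a score of 17. The remaining ones fell between 43.5% and 87.7% of the gene, and 3 of them touched a WT site.

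Mybbp1a encodes a nucleolar Myb-binding protein that regulates ribosomal RNA synthesis, and its gene spans 10.4 kb on chromosome 11. KO-only sites numbered 11 of 21 KO sites, against 2 WT-only of 12 WT sites. They scored 13 to 28, while the 10 shared KO sites reached 354. The sites sat close to WT sites, at a median distance of 150 nt, and 7 of 11 were within 200 nt. The site at the gene start printed above scored 21, and the highest, at 28, lay in the middle of the gene, at 45.0% of its length.

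Mdn1, a very large ATPase that strips factors from maturing large ribosomal subunits, had 10 KO-only among 16 KO sites, against 1 WT-only among 7 WT sites, over 118.1 kb of chromosome 4. Its KO-only sites lay between 28.9% and 98.9% of the gene and a median of 5325 nt from a WT site. Of the 10, 9 scored 12 to 16, and 1 at 91.5% of the gene scored 31. In all, 9 of the 10 scored at least 13, the lowest score in the WT list.

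**Figure D3:**
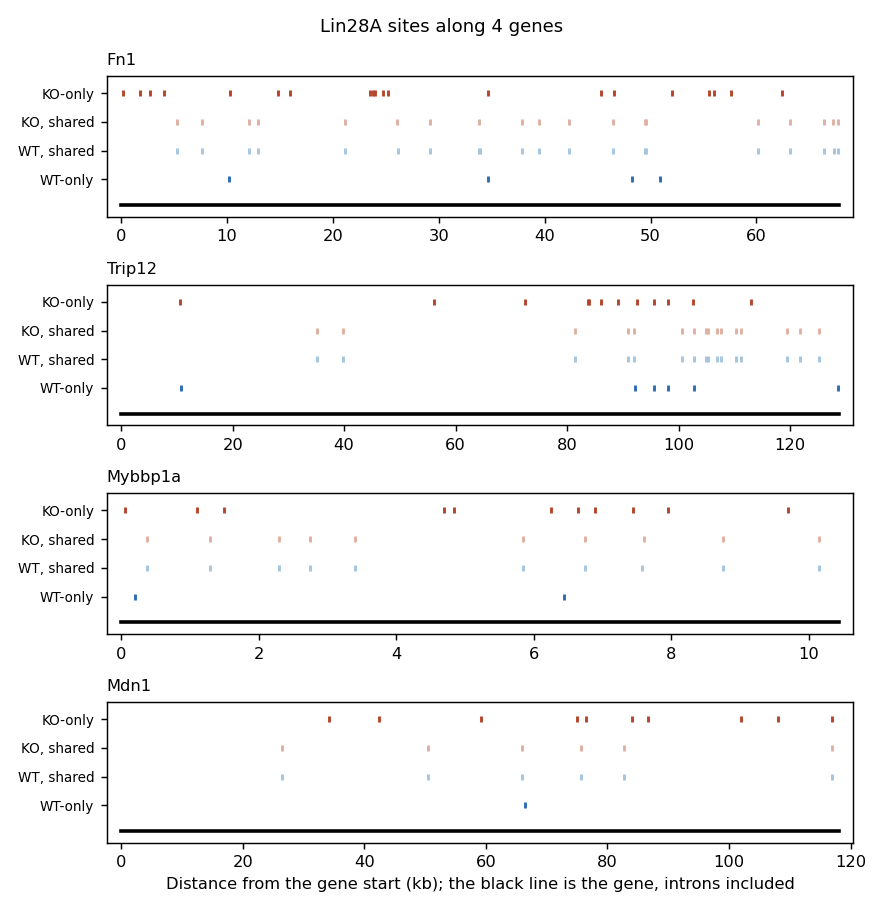
Positions of Lin28A sites along Fn1, Trip12, Mybbp1a and Mdn1, as distance in kb from the gene start in the direction of the sites (x axis), in rows for KO-only, shared KO, shared WT and WT-only sites. KO-only sites fill stretches between shared sites along Fn1 and Mybbp1a. Sites of every row are absent from the first part of Mdn1, and in Trip12 sites of every row lie mostly beyond 50 kb.

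Cenpf, a kinetochore-associated protein of dividing cells, had 9 KO-only among 11 KO sites, against 0 WT-only among 2 WT sites. The first lay at 0.174% of the 47.5 kb gene, 29050 nt from a WT site, and is the short stretch printed above. The other 8 lay between 69.5% and 95.6% of the gene, none within 200 nt of a WT site, and all 9 scored 12 to 19. At least 13, the lowest score in the WT list, was reached by 7 of the 9. The 2 shared sites scored 38 and 44 in the KO list. Scd2, a stearoyl-CoA desaturase on chromosome 19, had 9 KO-only among 22 KO sites, against 1 WT-only among 15 WT sites. Its KO-only sites had scores of 12 to 16 and a median distance of 100 nt, and 7 of the 9 scored at least 13. Scd1 and Scd2 are related genes, and no source used here gives how reads matching several places were treated.

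Igf2bp1, an mRNA-binding protein known as a reader of m6A and a target of let-7, was even between the genotypes when all scores were counted. It had 9 KO-only among 29 KO sites and 9 WT-only among 30 WT sites. Its KO-only sites scored 12 to 15, lay between 73.7% and 98.0% of the gene and had a median distance of 50 nt. Akap12, a scaffold for kinases, was alike in this, with 7 KO-only and 9 WT-only sites and a median distance of 50 nt. Xpo1, the main nuclear export receptor, had 8 KO-only among 22 KO sites, against 4 WT-only among 18 WT sites, with scores of 12 to 15. Kpnb1, the import receptor importin beta, had 7 among 25 KO sites, against 0 WT-only among 20 WT sites, with scores of 12 to 21 and a median distance of 1000 nt. KO-only sites at or above 13, the lowest score in the WT list, numbered 7 in Igf2bp1, 4 in Akap12, 4 in Xpo1 and 5 in Kpnb1.

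Gm52481, an annotated protein-coding gene of 2.36 kb on chromosome Y, had 8 KO-only among 9 KO sites, against 0 WT-only and 1 WT site. All 8 lay on the strand opposite to the annotated gene, between 8.34% and 59.3% of its length in the direction of the gene, with scores of 14 to 17. They are members by the rule, which asks nothing of the strand of the gene. Chromosome Y held 11 KO sites in protein-coding genes, 10 of them KO-only.

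Genes with 6 KO-only sites included Rest, a repressor of neuronal genes (7), Ganab, a glucosidase of the endoplasmic reticulum (3), Esrrb, a nuclear receptor of the pluripotency network (1), Kdm5b, a histone demethylase (2), Tnks2, a tankyrase (1), Ubap2, a ubiquitin-associated protein (0), Huwe1, a HECT-type ubiquitin ligase (3), Hells, a chromatin remodeller (3), and Otud4, a deubiquitinase (2). Rest and Akap12 had more WT-only than KO-only sites, and Ubap2 had no WT-only site. The KO-only counts include sites that scored under 13, where the WT list had none. Esrrb had a score of 19 at 98.9% and again at 99.7% of the gene, and 4 of its 6 KO-only sites lay at or beyond 98.3%.

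**Figure D4:**
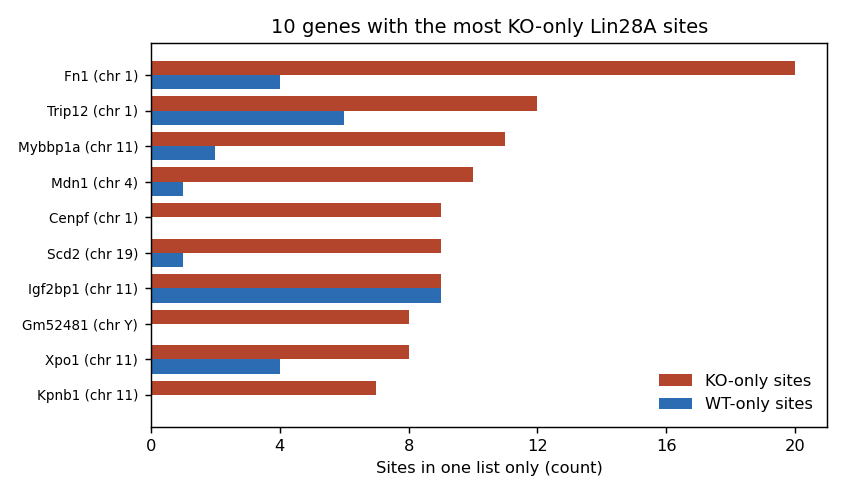
Number of KO-only sites and WT-only sites (x axis) in the 10 protein-coding genes with the most KO-only sites (y axis, with chromosome), 1 list per genotype. Fn1 leads with 20 KO-only against 4 WT-only sites, Igf2bp1 has 9 of each, and Cenpf, Gm52481 and Kpnb1 have 0 WT-only sites. The counts include KO-only sites that scored under 13, where the WT list has no site.

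Among genes with no WT site, Scd1 held the most, with 5 KO-only sites. They scored 46, 17, 16, 15 and 13, lay together between 76.4% and 88.5% of the gene, and were 152650 to 154250 nt from the nearest WT site. Kit, the receptor for stem cell factor, had 4 sites that scored 15 to 18, 3 of them within 1 kb of each other and 1 at 98.8% of the gene. Sparc, a secreted matrix glycoprotein, had 3, at 12, 14 and 26. Of the other genes with 3, the rule names Casp8ap2, the linker histone gene H1f10, the RNA-binding protein gene Qk, the zinc finger gene Zfp292, the splicing-associated gene Rbm25 and the ubiquitin ligase substrate receptor gene Dcaf1, and further genes tied with these. The 3 Zfp292 sites lay between 94.0% and 99.6% of the gene, the 3 Qk sites between 97.6% and 98.5%, and those of Dcaf1 between 33.7% and 36.4%.

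Where a gene did hold WT sites, the KO-only site farthest from them was in Dpyd, a pyrimidine-degrading enzyme, 730050 nt away with a score of 29. Plcb1, a phospholipase C, had a site 588300 nt from the WT site of that gene with a score of 13. Pcdh15, a cadherin of the inner ear, had a site at 531050 nt and Kirrel3, an adhesion molecule, at 354650 nt, both with a score of 12. Bmpr1b, a BMP receptor, had a site at 327750 nt with a score of 29. Each of these 5 large genes held 1 WT site.

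Taken over all members, KO-only sites lay later in their genes than shared or WT-only sites. Gene bounds include introns, so positions are along the gene and not along the mRNA. The final 20% of the gene body held 1153 KO-only sites, 46.4% (44.4 to 48.4), against 39.7% (38.5 to 40.9) of shared KO sites and 40.3% (38.3 to 42.4) of WT-only sites. From start to end, the 5 equal parts of the gene held 12.96%, 10.9%, 12.7%, 17.0% and 46.4% of KO-only sites. The same parts held 17.2%, 10.0%, 14.8%, 17.7% and 40.3% of WT-only sites. The median position was 76.1% of the gene for KO-only sites, 69.7% for shared KO sites and 69.1% for WT-only sites. Within 2 kb of the gene end lay 33.4% (31.6 to 35.3) of KO-only sites, against 29.0% (27.8 to 30.1) of shared KO sites and 26.3% (24.5 to 28.1) of WT-only sites.

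The KO-only share in the final 20% was the higher in each subset below, but in 3 of them its interval overlapped that of WT-only sites. Among sites that scored at most 16, the final 20% of the gene held 46.0% (43.8 to 48.3) of KO-only sites, 39.6% (37.4 to 41.9) of shared KO sites and 41.0% (38.5 to 43.4) of WT-only sites. With the highest-scoring site of each gene alone, it held 45.8% (43.4 to 48.2) of KO-only and 37.6% (35.0 to 40.1) of WT-only sites. In genes of at most 20 kb the shares were 45.2% (41.8 to 48.7) and 34.9% (31.5 to 38.5), and in longer genes 47.0% (44.6 to 49.4) and 42.8% (40.3 to 45.3), where the intervals overlap. Away from the other list, with no such site within 1000 nt, they were 40.8% (38.4 to 43.3) of KO-only and 34.2% (31.8 to 36.7) of WT-only sites. That KO-only share, over 1619 sites, was close to the 39.7% of all shared KO sites, with intervals that overlap. In genes with no site of the other list they were 46.1% (42.6 to 49.5) and 40.1% (36.3 to 44.0), with intervals that overlap. On chromosomes 1, 3, 6 and 11 they were 44.1% (40.7 to 47.6) and 42.0% (37.2 to 46.8), and there the intervals overlap most, also with the 39.2% (36.9 to 41.6) of shared KO sites. With 1 list per genotype, the spread of such a share between repeat lists is unknown.

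Gene strand was available for 1974 KO-only sites, and 1871 of them, 94.8% (93.7 to 95.7), lay on the strand of their gene. The share was 91.5% (90.7 to 92.2) for shared KO sites and 92.5% (91.2 to 93.6) for WT-only sites. Among shared KO sites that scored at most 16 it was 94.3% (93.0 to 95.4), an interval that overlaps that of KO-only sites. The other 103 KO-only sites lay opposite to the gene, and 8 of these are the Gm52481 sites.

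KO-only sites were unevenly divided between chromosomes. Over all chromosomes, 52.0% (50.5 to 53.4) of the sites found in a single list were KO-only. These counts have unlike floors, since the KO list reaches down to a score of 12 and the WT list to 13. At a score of at least 13 there were 1826 KO-only sites, against 2297 WT-only sites. On chromosome 6 the share was 70.2% (63.6 to 76.3), with 151 KO-only against 64 WT-only sites. On chromosome 1 it was 67.3% (62.1 to 72.2), with 235 against 114, on chromosome 11 it was 64.6% (60.2 to 68.8), with 317 against 174, and on chromosome 3 it was 62.6% (55.6 to 69.2), with 129 against 77. At the other end, chromosome 14 had 36 KO-only against 103 WT-only sites, 25.9% (18.8 to 34.0), and chromosome 10 had 77 against 160, 32.5% (26.6 to 38.9). The intervals of chromosomes 2, 4, 12, 16 and 17 also lay below 52.0%. The first 6 chromosomes were singled out after their values were seen.

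The leading genes, made of the same sites, followed this division. Chromosomes 1, 3, 6 and 11 held 832 KO-only sites, 33.5%, against 429 WT-only sites, 18.7%. Of all sites in protein-coding genes, they held 29.0% in the KO list and 25.1% in the WT list. They also held 69 of the 166 genes with 3 or more KO-only sites, 41.6%, against 29 of the 194 genes with 3 or more WT-only sites, 14.9%. Of the 10 leading genes, 7 lay on chromosome 1 or 11, among them Fn1, Trip12, Mybbp1a and Cenpf. Without these 4 chromosomes, 1652 KO-only and 1868 WT-only sites remained, and 97 genes had 3 or more KO-only sites.

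Ranks of shared sites differed between chromosomes too. For the 5392 shared sites with the same bounds in both lists, the percentile rank of the score within each list was compared, and the KO rank was the higher in 51.4%. The KO rank was higher in 25.2% of 151 such sites on chromosome 14, with a median difference (KO minus WT) of -11.3 percentile points, and in 35.4% of 277 on chromosome 10 (-5.04 points). It was higher in 60.3% of 542 sites on chromosome 11 and in 58.5% of 390 on chromosome 1, with medians of 1.89 and 2.10 points. On chromosomes 6 and 3 it was higher in 55.7% of 255 and 53.3% of 246 sites, with medians of 1.08 and 0.37 points. The highest shares were 64.6% of 364 sites on chromosome 5 and 61.7% of 222 on chromosome 13, where KO-only sites were 55.7% and 49.0% of single-list sites. A site in one list only, or a shift in rank, can accompany a change of binding or a change of RNA amount, and repeat lists could differ as well. With 1 list per genotype and unknown depth, these cannot be told apart. The part of the chromosome in the counts of single genes was not tested.

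**Figure D5:**
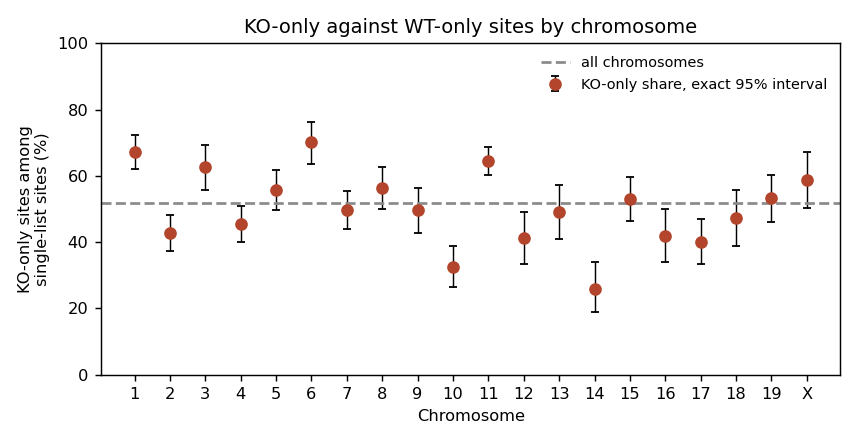
Percent of single-list sites that were KO-only (y axis) on each autosome and chromosome X (x axis), with exact 95% intervals, and the value over all chromosomes as a dashed line at 52.0%. Chromosomes 1, 3, 6 and 11 lie above the line and chromosomes 10 and 14 lie farthest below it. The KO list reaches down to a score of 12 and the WT list to 13.

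Gene groups differed in how much of their KO signal was KO-only, and their scores differed as well. The lists of genes were drawn up with earlier results of these data known. Over all protein-coding KO sites, 28.2% were KO-only, the median score was 18, and among the 4974 sites that scored under 20 the KO-only share was 45.4%. The median gene with a KO site had 0 KO-only sites. KO-only counts of the groups include sites that scored under 13, where the WT list had none.

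Genes of DNA replication and repair had 47 KO-only among 125 KO sites, 37.6% (29.1 to 46.7), and 30 WT-only sites, with KO-only sites in 19 of the 25 genes that had a KO site. The helicase subunit gene Mcm6 and the replication timing factor gene Rif1 had 5 each (2 and 1 WT-only). The helicase subunit genes Mcm2 (0 WT-only) and Mcm5 (1 WT-only) and Rrm1, a subunit of ribonucleotide reductase (0 WT-only), had 4 each. The lowest score in the WT list was 13. KO-only sites at or above it numbered 4 in Mcm6, 3 in Mcm5, 2 in Rif1, 2 in Mcm2 and 1 in Rrm1. Nucleolar and ribosome assembly genes had 51 among 140 KO sites, 36.4% (28.5 to 45.0), and 23 WT-only sites. Of these 51, 21 belonged to Mybbp1a and Mdn1, and the RNA helicase gene Ddx21 had 4 (4 WT-only) and the nucleolin gene Ncl had 3 (1 WT-only). Without chromosomes 1, 3, 6 and 11 the nucleolar group had 31 KO-only against 18 WT-only sites and the replication group 33 against 22. Among sites that scored under 20, the KO-only share was 53.7% (42.3 to 64.7) for the nucleolar group and 51.1% (40.3 to 61.8) for the replication group, and both intervals include the 45.4% of all sites.

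Extracellular matrix and basement membrane genes had 34 KO-only among 97 KO sites, 35.1% (25.6 to 45.4), and 50 WT-only sites. Fn1 supplied 20 of the 34, Lamc1, a laminin chain, supplied 4 (1 WT-only) and Sparc 3. In the other direction Hspg2, the proteoglycan perlecan, had 1 KO-only against 13 WT-only sites. Without chromosomes 1, 3, 6 and 11 the group had 7 KO-only against 45 WT-only sites. Mitosis and kinetochore genes had 26 among 79 KO sites, 32.9% (22.7 to 44.4), and 24 WT-only, led by Cenpf with 9 and by Top2a, a DNA topoisomerase, with 4 (4 WT-only).

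Pluripotency genes had 34 KO-only among 102 KO sites, 33.3% (24.3 to 43.4), and 29 WT-only sites, with KO-only sites in 15 of 20 genes that had a KO site. Esrrb led with 6. Tet2, a 5-methylcytosine dioxygenase, had 5 (1 WT-only), its relative Tet1 had 4 (7 WT-only) and the transcription factor gene Nanog had 4 (0 WT-only). The Nanog sites scored 13, 13, 13 and 14, and 3 of them lay at or beyond 91.8% of the gene. Genes of the let-7 and Lin28 pathway had 21 among 62 KO sites, 33.9% (22.3 to 47.0), and 24 WT-only. After Igf2bp1, Trim25, a ubiquitin ligase that binds RNA, had 3 (1 WT-only). There were 2 each in Lin28a itself (3 WT-only), in the let-7 target gene Trim71 (7 WT-only), in Drosha, the nuclear microRNA-processing nuclease (0 WT-only), and in Tut4, a terminal uridylyltransferase that acts with Lin28A on let-7 precursors (0 WT-only). The Tut4 sites scored 25 and 18, and the first lay at 0.665% of the gene. Among writers, erasers and readers of m6A, 17 of 57 KO sites were KO-only, 29.8% (18.4 to 43.4), against 13 WT-only, with 9 in Igf2bp1 and 3 in the reader gene Ythdf1 (1 WT-only). Mettl3 held 0 sites in both lists. Binding sites say nothing of how much Mettl3 the cells made, so the genotypes rest on the labels.

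Several groups had KO-only shares whose intervals lay below 28.2%. Chaperone genes had 20 KO-only among 182 KO sites, 10.99% (6.84 to 16.5), and 27 WT-only. Of these 20 KO-only sites, the chaperonin subunit genes Cct4 and Cct5 had 4 each (0 WT-only). Ribosomal protein genes had 12 among 106, 11.3% (5.99 to 18.9), and 3 WT-only, with 2 in Rplp0, a stalk protein (0 WT-only). Their KO sites scored high, with a median of 32.3, and among those that scored under 20 the share was 40.7% (22.4 to 61.2), against 19.8% (11.7 to 30.1) for chaperones. Translation factors had 29 among 183, 15.8% (10.9 to 22.0), and 37 WT-only, with 3 each in the initiation factor genes Eif3a (6 WT-only), Eif3d (2 WT-only), Eif3l (2 WT-only), Eif4g1 (4 WT-only) and Eif4g2 (6 WT-only), and their median KO score was 22.5. Among their KO sites that scored under 20 the share was 36.6% (25.5 to 48.9), an interval that includes the 45.4% of all sites. Genes of glycolytic enzymes and glucose transporters had 7 among 52, 13.5% (5.59 to 25.8), and 17 WT-only. Of the 7, 2 lay in the glucose transporter gene Slc2a3 (1 WT-only) and 1 in Pkm, pyruvate kinase (5 WT-only). Of the KO sites of this group that scored under 20, 26.9% (11.6 to 47.8) were KO-only. Cytoskeletal and motor genes had 30 among 176, 17.0% (11.8 to 23.4), and 76 WT-only. Among their KO sites that scored under 20 the share was 27.4% (19.1 to 36.9), an interval below the 45.4% of all sites. Beside Akap12, Flna, an actin crosslinker, had 3 (8 WT-only), Dync1h1, the dynein heavy chain, had 3 (11 WT-only) and Macf1, a spectraplakin, had 2 (13 WT-only).

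Chromatin regulators had 31 KO-only among 169 KO sites, 18.3% (12.8 to 25.0), and 49 WT-only, with 5 in the Polycomb gene Suz12 (1 WT-only) and, beside Tet1, 4 each in the remodeller gene Chd4 (5 WT-only) and the Polycomb-associated gene Jarid2 (4 WT-only). Among their KO sites that scored under 20 the share was 30.4% (21.7 to 40.3), an interval below the 45.4% of all sites. Splicing factors and hnRNPs had 57 among 264, 21.6% (16.8 to 27.0), and 58 WT-only, with 5 each in Sf3b1 (1 WT-only), Prpf8 (7 WT-only), Hnrnpul2 (0 WT-only), Ddx5 (2 WT-only) and Srrm2 (6 WT-only). Among the KO sites of this group that scored under 20 the share was 37.7% (29.8 to 46.1), an interval that includes the 45.4% of all sites. Ubiquitin pathway genes had 44 among 189, 23.3% (17.5 to 30.0), and 40 WT-only, 12 of the 44 in Trip12, 6 in Huwe1 and 4 in Nedd4 (5 WT-only). Importins, exportins and pore proteins had 39 among 137, 28.5% (21.1 to 36.8), and 31 WT-only, with 5 in the pore protein gene Tpr (1 WT-only) beside Xpo1 and Kpnb1. Secretory pathway genes had 17 among 50, 34.0% (21.2 to 48.8), and 23 WT-only, with 2 each in the clathrin heavy chain gene Cltc (5 WT-only), the coatomer gene Copa (1 WT-only), the translocon gene Sec61a1 (2 WT-only), the glycosylation gene Rpn1 (2 WT-only) and the retromer gene Vps35 (1 WT-only).

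Cell type markers were checked in the site lists, which register a marker only if Lin28A was crosslinked to its RNA. Of 10 mES markers, 9 had a KO site, with 74 KO and 66 WT sites in all, among them Pou5f1 with 7 KO and 6 WT sites. Markers of extraembryonic endoderm had 4 KO and 4 WT sites over 11 genes, all in Sparc and Lama1. Feeder fibroblast markers had 0 KO sites and 1 WT site, and neuroectoderm markers had 0 in both. The trophoblast marker Tfap2c and the mesoderm marker Kdr had 1 KO-only site each. Of these 2 endoderm genes, Sparc had 3 KO-only and 0 WT-only sites, and Lama1 had 0 KO-only and 3 WT-only sites.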

How the data were processed

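The Lin28A irCLIP site lists, 1 for each genotype, hold intervals on a grid of 50 nt with strand, and the deposited columns add the authors' score and the authors' p-value. Both values served to describe and limit sites of their own list, and scores of the lists were set side by side only at the lowest score, at equal score limits and as percentile ranks. Whether equal scores mean the same in both lists is not known. The submitters' processing notes list Bowtie2, UMI-tools and the build mm10, without versions or roles. No source used here gives the site caller, its control, its threshold or the number of reads. The icSHAPE files of the study were not used here.

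Sites were placed within RefSeq gene bounds of GRCm38.p6, the assembly behind mm10, without exons, and kept where they overlapped 1 gene only, of protein-coding type. Gene strand came from the RefSeq promoter table. Where it was missing, positions followed the strand of the site. A KO-only site shared no nt on its strand with a WT site, and distance was the number of nt between edges. Shares carry exact (Clopper-Pearson) 95% intervals, which cover counting error only. With 1 list a genotype no test was run. The overlap and distance steps were tested on simulated data. Python 3.11.15, pandas 2.3.3, numpy 2.4.6 and scipy 1.17.1 were used.

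The members and gene lists were chosen with earlier results of these data known. Named in full were the 10 genes with the most KO-only sites (ties by summed score), the 10 highest scores, the 10 leading genes without a WT site, the 5 sites farthest from a WT site of their gene, and 2 to 4 leading members of each list. Some genes that this rule names are not reported here. Genes beyond these, and the markers with a site, were named after their values were seen. Alternatives changed the overlap rule, the strand rule, the score limit, site width, gene assignment, merging of touching sites, chromosomes and sites per gene.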

Additional observations from a re-analysis of the deposited data

How the results depend on the processing

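No paired analysis was possible because each genotype held 1 sample, and no replicate could be left out for the same reason. With a WT site within 50 nt counted as shared, 37.5% of KO-only sites lay in genes with no WT site and 9.23% within 200 nt of one. With both lists limited to sites at or above their own median score (19 in KO, 20 in WT), 983 KO-only sites in 801 genes remained, 38 genes had 3 or more, the median score was 22, the shares were 46.9% and 9.56%, and 1130 sites were WT-only. With the limit on the KO list alone, 302 KO-only sites in 288 genes remained, 1 gene had 3 or more, the median score was 21, and 4720 sites were WT-only, since WT sites then lost their lower-scoring KO partners. With rows 50 nt wide only, the shares were 30.4% and 17.3%. The following were chosen after seeing the data. With KO sites that scored at least 13, 102 genes had 3 or more and the median score was 15. On the strand of the gene, 31.2% lay in genes with no WT site. With 1 site per gene, 42.8% did and 16.3% lay within 200 nt. Without chromosomes 1, 3, 6 and 11, 1652 sites and 97 genes with 3 or more remained, and 35.7% lay in genes with no WT site. Apart from construction (fewer sites, fewer genes), the cause of these moves was not tested. Over the 12 alternatives run, the final 20% of the gene held 45.3% to 47.7% of KO-only and 37.6% to 41.7% of WT-only sites. With rows 50 nt wide only, these shares were 45.3% (43.4 to 47.1) and 41.7% (39.8 to 43.6), with intervals that overlap, and the difference was 3.54 percentage points against 6.10 with all rows. Chromosome 14 stayed 4.44 to 27.3 percentage points under the KO-only share of all chromosomes, and chromosome 1 stayed 3.73 to 18.1 points over it. Chromosome 3 stayed 4.38 to 12.9 points over it. With both lists at or above their median score, however, chromosome 3 was 7.48 points over, with an interval from -2.78 to 17.5. The share of all chromosomes itself changed between alternatives, so these ranges mix unlike baselines. Without replicates, depth limits every statement on a single site or gene.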
